A study of Homo sapiens with 15 samples.

Results

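UKE-1 cells given micheliolide (MCL) after TNF-α stimulation were set directly against UKE-1 cells given ruxolitinib after the same stimulation. The comparison used 6 of the 15 RNA-seq libraries of the study, 3 with TNF-α and MCL and 3 with TNF-α and ruxolitinib, chosen by their labelled treatment. It covered every gene that passed a minimum count of 10 by group, 16146 of 58735 genes. UKE-1 is an established human myeloid leukaemia line from an essential thrombocythaemia that had transformed, and it carries an activating JAK2 mutation. TNF-α alone (3 libraries) and untreated cells (3 libraries) served as the levels without either drug. They are separate groups labelled with the same 3 h, not samples from before the drug. Another 3 libraries with both drugs entered the estimate of the spread. TNF-α is an inflammatory cytokine, both drug groups received it before the drug, and RNA was taken 3 h after treatment. Neither the dose of a drug, nor how long TNF-α acted, nor whether replicates were grown apart is given in the sources used here. A p-value below thus weighs a difference against the spread between libraries within all 5 groups, partly shared across genes. That spread may be only technical, and each drug was compared at 1 unstated dose.

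Micheliolide is a sesquiterpene lactone, a plant-derived class whose reactive methylene group can attach to cysteines of proteins such as KEAP1, IκB kinase and STAT3. Freed of KEAP1, the transcription factor NRF2 switches on antioxidant genes, while NF-kB carries the TNF-α signal to cytokine, adhesion and survival genes. Ruxolitinib blocks the ATP sites of JAK1 and JAK2, the kinases that pass cytokine and interferon signals to STAT transcription factors, and it is used in myeloproliferative neoplasms. By its title the series concerns the binding of micheliolide to STAT3 and STAT5 in myeloproliferative neoplasms.

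Library totals ran from 15476399 to 18035604 counts over all 15 libraries. Markers of haematopoietic cells fitted the label, with PTPRC between 297 and 346 CPM and CD34 between 996 and 1292 CPM in all 15 libraries, while MS4A1, EPCAM and KRT19 were at 0 in each. Lower among the haematopoietic markers were KIT, between 18.5 and 40.1 CPM, and GATA1, between 8.25 and 19.1 CPM. The summed level of the 8 haematopoietic markers was 2560 to 2606 CPM with MCL and 2971 to 3035 CPM with ruxolitinib, and that of 12 markers of other cell types was 386 to 397 CPM with MCL and 397 to 418 CPM with ruxolitinib. Endothelial and epithelial genes were among the second list, CDH5 between 160.2 and 262 CPM, PECAM1 between 137 and 161 CPM and KRT18 between 59.7 and 104 CPM. The T cell genes of that list were present at low levels, CD3D between 5.72 and 14.4 CPM and CD3E between 4.78 and 8.65 CPM. The part of these differences in other results was not tested, and fewer cells of a kind and less RNA per cell cannot be told apart in bulk samples. Levels below are CPM, counts divided by the scaled library size, as mean ± SD of 3 libraries or for each library in the order of its replicate number. A gene is called higher or lower where edgeR's quasi-likelihood test gave an adjusted p under 0.05, and fold changes are MCL over ruxolitinib.

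The drugs left the cells with clearly different RNA, although most differences were small. With MCL 2311 genes were higher and 2123 lower than with ruxolitinib, a background of 27.5% of tested genes called, 14.3% higher and 13.1% lower. Of the higher genes 1962 (84.9%) differed by less than 1.5-fold, as did 1489 (70.1%) of the lower genes. At least 2-fold differences were met by 152 higher genes (0.941% of those tested) and 285 lower genes (1.77%). All MCL libraries lay above all ruxolitinib libraries in 18.9% of tested genes and below them in 18.7%. Genes named below for the highest or lowest fold changes were chosen without overlap, so its absence is no support of their difference. At the edge of the filter, of the list members below, CCR7 passed with 0 to 14 counts in a library, whereas ABCB6 with 3 to 15 counts did not. The median log2 fold change of all tested genes was -0.01, with quartiles at -0.197 and 0.147. On the first principal component of the 6 libraries, with 44.91% of the variance, the 3 MCL libraries lay between -29.3 and -23.2 and the 3 ruxolitinib libraries between 24.7 and 26.1.

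**Figure D1:**
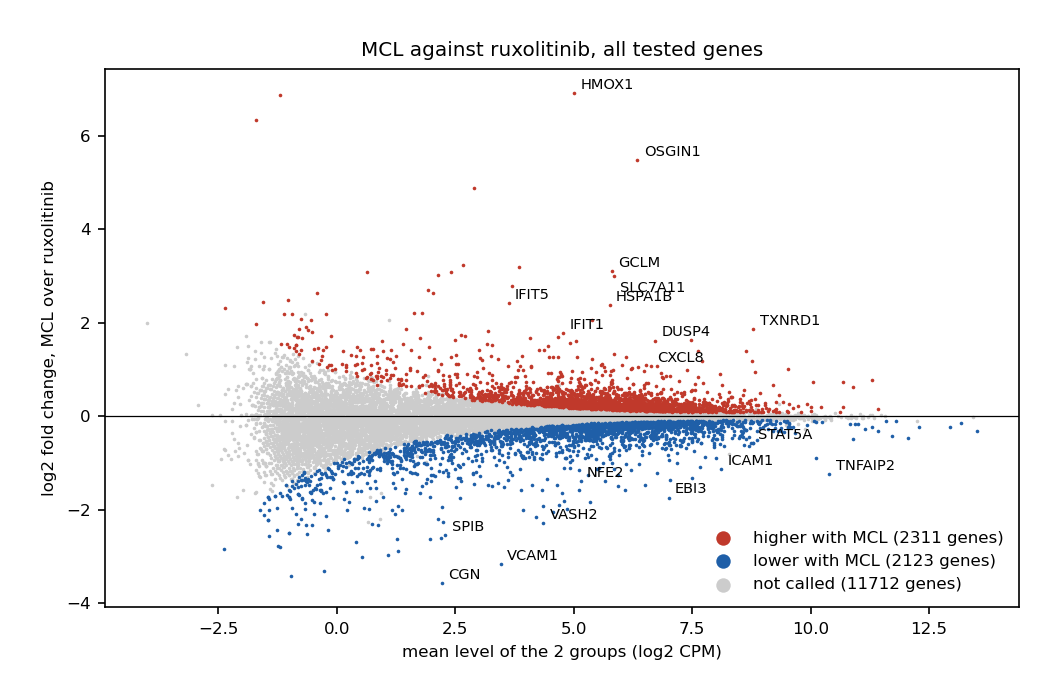
Log2 fold change of MCL over ruxolitinib (vertical axis) against the log2 of the mean CPM of the 2 groups (horizontal axis) for 16146 tested genes, 1 point each. Red points are the 2311 genes higher with MCL, blue points the 2123 lower ones and grey points those not called; HMOX1, at 6.91, is the highest and CGN, at -3.56, the lowest.

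Grouped by function, the antioxidant list had the highest median and the NF-kB cytokine list the lowest. The 22 lists held 570 different genes, of which 42 stayed outside the count filter. Members are described by how many were called, beside the 14.3% higher and 13.1% lower of all genes, and no list was tested as a set. Of 12455 protein-coding genes alone, 2168 were higher and 1901 lower, 32.7% called. The lists were chosen with earlier results of these data known, so a share above these is no support of its own.

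**Figure D2:**
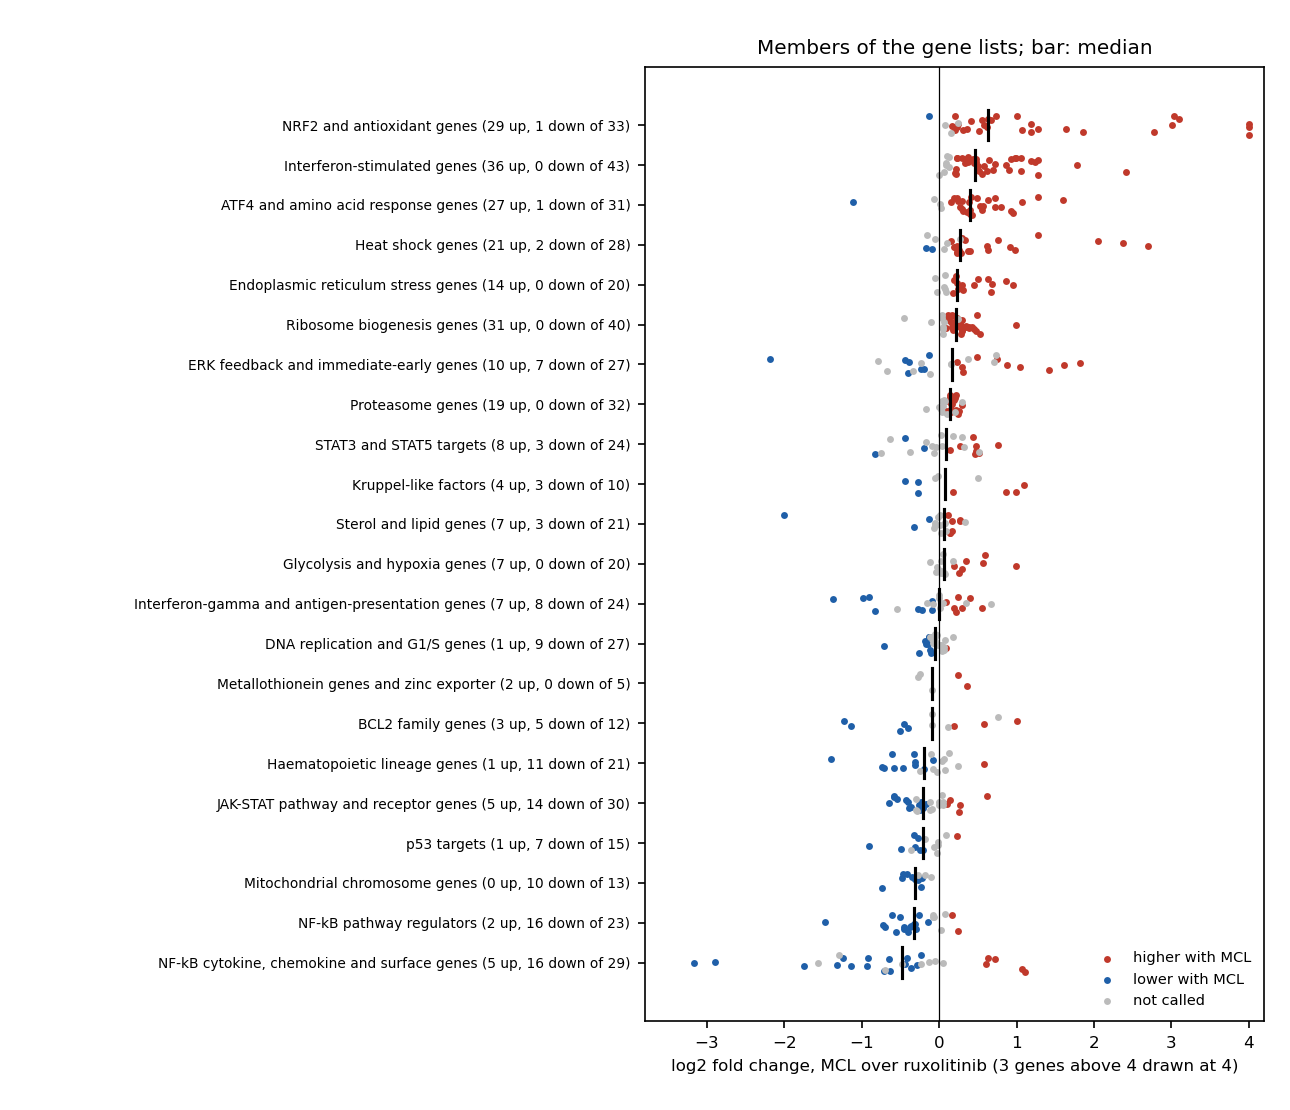
Log2 fold change of MCL over ruxolitinib (horizontal axis) for the tested members of 22 gene lists (vertical axis, with counts called), red where higher, blue where lower and grey where not called; the black bar is the median of a list, from 0.63 in the antioxidant list to -0.48 in the NF-kB cytokine list. HMOX1, OSGIN1 and LUCAT1 lie above 4 and are drawn there; LUCAT1 had 0 counts in all 3 ruxolitinib libraries.

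Antioxidant genes controlled by NRF2 gave the largest differences of the comparison. Of 33 tested members 29 were higher with MCL and 1 was lower, with a median log2 fold change of 0.63 beside -0.01 over all genes. HMOX1 (hg38 chr22:35380361-35394214, plus strand), the haem oxygenase that breaks down haem, had 67.6, 58.4 and 64.9 CPM in the MCL libraries, against 0.789, 0.623 and 0.175 CPM in the ruxolitinib libraries. The groups were 120-fold apart (log2 fold change 6.91, SE 0.15, adjusted p = 6.1e-24). With so few counts under ruxolitinib, the fold is less certain than this SE says. TNF-α alone gave 0.482 ± 0.165 CPM and untreated cells 0.766 ± 0.302 CPM, so the gene was near 0 in every group without MCL.

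GCLM, the modifier subunit of glutamate-cysteine ligase, had 96.7, 110.3 and 94.8 CPM with MCL and 10.98, 11.3 and 12.8 CPM with ruxolitinib. Its log2 fold change was 3.10 (SE 0.07, adjusted p = 4.34e-42). SLC7A11, the cystine and glutamate exchanger, had 101, 105 and 101 CPM with MCL and 13.6, 12.3 and 12.2 CPM with ruxolitinib. Its log2 fold change was 3.01 (SE 0.06, adjusted p = 1.14e-46). Among the thiol and quinone reductases, TXNRD1 (thioredoxin reductase) averaged 696 ± 5.96 CPM with MCL and 192 ± 1.44 CPM with ruxolitinib, 3.62-fold higher (log2 fold change 1.86, SE 0.03, adjusted p = 1.93e-48). NQO1 averaged 22.7 ± 1.06 CPM with MCL and 3.31 ± 0.773 CPM with ruxolitinib (log2 fold change 2.78, SE 0.13, adjusted p = 1.05e-26). Sulfiredoxin, SRXN1, averaged 7.80 ± 0.713 CPM with MCL and 0.953 ± 0.406 CPM with ruxolitinib (log2 fold change 3.03, SE 0.24, adjusted p = 5.26e-16). OSGIN1, an oxidative stress induced growth inhibitor, had 157, 158 and 162 CPM in the MCL libraries, against 4.49, 2.49 and 3.68 CPM in the ruxolitinib libraries. The groups were 44.5-fold apart, with the smallest p of all tested genes (log2 fold change 5.48, SE 0.08, adjusted p = 6.39e-53). MAFG, a small MAF protein that pairs with NRF2, rose 3.12-fold to 269 ± 6.49 CPM with MCL, against 86.2 ± 0.275 CPM with ruxolitinib. SQSTM1, the autophagy receptor that binds KEAP1, was 2.003 times as high, at 982 ± 8.23 CPM with MCL and 490.1 ± 10.7 CPM with ruxolitinib (log2 fold change 1.00, SE 0.03, adjusted p = 4.57e-35). NFE2L2, which encodes NRF2 itself, differed by 0.17 (SE 0.05, adjusted p = 0.013) on the log2 scale and was named after its values were seen. The 1 lower member, the aldose reductase AKR1B1, was at -0.13 (SE 0.05, adjusted p = 0.0373); its call was lost in several alternatives.

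Against TNF-α alone, a comparison that shares the TNF-α libraries between the drugs, the median of the 33 antioxidant genes was 0.56 with MCL and 0.00 with ruxolitinib. SLC7A11 stood at 3.07 (adjusted p = 8.46e-47) with MCL and 0.06 (adjusted p = 0.719) with ruxolitinib on that log2 scale. GCLM was at 3.10 (adjusted p = 5.55e-42) with MCL and 0.00 (adjusted p = 0.986) with ruxolitinib. NQO1 was higher than TNF-α alone with either drug, at 3.53 (adjusted p = 1.22e-29) with MCL and 0.75 (adjusted p = 0.00335) with ruxolitinib.

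The antioxidant response element was searched as TGACNNNGC on both strands of the 250 bases before to 50 bases after each RefSeq start (GRCh38.p14). It occurred in 7 of 25 promoters of the list (28%), in 13.6% of all 27305 promoters and in 15.4% of those of tested genes. The share did not set this list apart: it was 28% in the heat shock list and 32.1% in the ATF4 list. Other lists ran from 0% (sterol and lipid genes) to 75% (metallothionein list, 3 of 4 promoters). The promoters of GCLM (chr1:93909431-93909580 on the minus strand) and TXNRD1 (chr12:104215629-104215778 on the plus strand) are printed because these genes were among the most different members and hold a match, shown in capitals. Each stretch is the 150 bases before the annotated start, 5′ to 3′. The first base of the match in capitals lies at -34 in GCLM, on the reverse strand, and at -99 in TXNRD1, counted from 0 at the start. TXNRD1 has a further match on the reverse strand from -8 to 0, which runs past the printed stretch.
GCLM: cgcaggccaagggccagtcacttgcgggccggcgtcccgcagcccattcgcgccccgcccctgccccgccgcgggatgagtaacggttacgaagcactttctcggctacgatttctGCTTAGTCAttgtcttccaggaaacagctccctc
TXNRD1: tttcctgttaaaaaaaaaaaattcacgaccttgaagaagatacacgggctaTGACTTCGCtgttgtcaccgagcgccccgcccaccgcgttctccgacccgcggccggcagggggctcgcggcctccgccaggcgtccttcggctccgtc

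Over all genes, the letters of the antioxidant element were found in 18 of 93 promoters (19.4%) of genes at least 2-fold higher with MCL and in 29 of 165 (17.6%) of those at least 2-fold lower. Of the 16146 tested genes 10953 had a promoter in the RefSeq table, and a match is a stretch of letters that shows no binding.

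**Figure D3:**
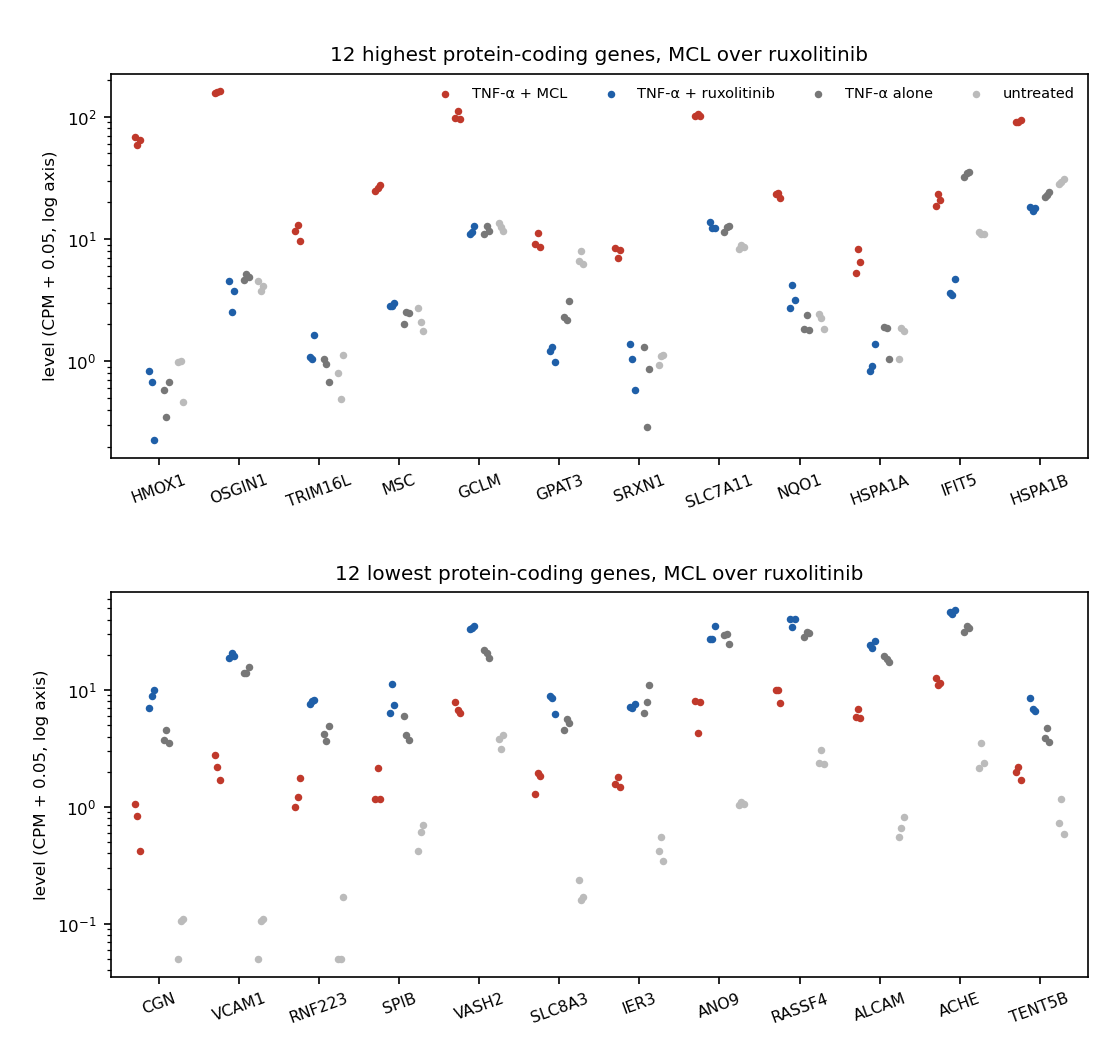
Level in CPM plus 0.05 (vertical log axis) of the 12 protein-coding genes with the highest (upper panel) and the 12 with the lowest (lower panel) fold change of MCL over ruxolitinib, among called genes averaging 5 CPM or more in the higher drug group without overlap, 1 point per library: MCL in red, ruxolitinib in blue, TNF-α alone in dark grey, untreated in light grey. The MCL points lie above the ruxolitinib points for each upper gene and below them for each lower gene; for IFIT5 TNF-α alone lies above both.

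The 12 highest fold changes were taken over called protein-coding genes that averaged 5 CPM or more with the drug of the higher level, with no overlap of libraries. They held 6 members of the antioxidant list (HMOX1, OSGIN1, GCLM, SRXN1, SLC7A11 and NQO1), 2 heat shock genes and 1 interferon-stimulated gene. The other 3 were TRIM16L, MSC and GPAT3. TRIM16L, a gene closely related to TRIM16 whose reads may be shared with it, had 11.6, 12.99 and 9.58 CPM with MCL and 1.03, 0.996 and 1.58 CPM with ruxolitinib (log2 fold change 3.23, SE 0.20, adjusted p = 3.07e-21). MSC, which encodes the transcription factor musculin, had 24.5, 25.9 and 27.7 CPM with MCL and 2.79, 2.80 and 2.92 CPM with ruxolitinib (log2 fold change 3.19, SE 0.13, adjusted p = 9.69e-30). Its overlapping antisense gene MSC-AS1 was also higher at 1.71 (adjusted p = 3.47e-14). GPAT3, an enzyme of triglyceride synthesis, had 8.97, 11.03 and 8.59 CPM with MCL and 1.15, 1.245 and 0.936 CPM with ruxolitinib (log2 fold change 3.09, SE 0.20, adjusted p = 3.15e-20). Its ruxolitinib libraries lay below TNF-α alone, at 2.46 ± 0.509 CPM, and its MCL libraries above it.

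Of 28 tested heat shock genes 21 were higher with MCL and 2 lower, with a median of 0.27, and 11 were called higher against a 1.2-fold change. The inducible HSP70 gene HSPA1B (hg38 chr6:31827735-31830255, plus strand) had 90.5, 89.8 and 93.1 CPM in the MCL libraries, against 18.02, 16.9 and 17.7 CPM in the ruxolitinib libraries. Its groups were 5.19-fold apart (log2 fold change 2.38, SE 0.05, adjusted p = 3.22e-43). The near-identical copy HSPA1A, with which reads may be shared, was at 2.70 (SE 0.42, adjusted p = 0.000424). DNAJB4, a co-chaperone of HSP70, had 71.7, 69.5 and 62.2 CPM with MCL and 14.9, 16.1 and 17.95 CPM with ruxolitinib (log2 fold change 2.05, SE 0.07, adjusted p = 3.8e-35). DNAJB1, another co-chaperone, averaged 222 ± 6.40 CPM with MCL and 112 ± 3.32 CPM with ruxolitinib (log2 fold change 0.98, SE 0.04, adjusted p = 7.88e-32). HSPA8, the constitutive HSP70 gene, moved by less than HSPA1B. It averaged 3188 ± 76.8 CPM with MCL and 1874 ± 43.1 CPM with ruxolitinib (log2 fold change 0.77, SE 0.03, adjusted p = 4.08e-31). HSP90AA1 was at 0.62 (adjusted p = 2.82e-26) and the HSP110 gene HSPH1 at 0.91 (adjusted p = 4.86e-32). HSPA8 lay above TNF-α alone with MCL, at 0.48 (adjusted p = 2.46e-21), and below it with ruxolitinib, at -0.29 (adjusted p = 7.64e-12). The lower members were the collagen chaperone SERPINH1 at -0.17 (adjusted p = 0.000329) and HSPB1 at -0.09 (adjusted p = 0.0464).

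The heat shock element, searched as GAA, TTC and GAA with 2 free bases between neighbours, on both strands, occurred in 5 of 25 promoters of the list (20%) and in 0.487% of all promoters. The 150 bases before the start are printed for HSPA8 (chr11:123062137-123062286 on the minus strand), the constitutive HSP70 gene, and for CHORDC1 (chr11:90223050-90223199 on the minus strand), a co-chaperone of HSP90, which was at 0.63 (SE 0.05, adjusted p = 2.34e-15) on the log2 scale. CHORDC1 was chosen after its values were seen because 3 matches overlap in it, at -60, -55 and -50 with alternating strands, while HSPA8 has 1 in this stretch at -55, on the reverse strand; capitals mark the matches.
HSPA8: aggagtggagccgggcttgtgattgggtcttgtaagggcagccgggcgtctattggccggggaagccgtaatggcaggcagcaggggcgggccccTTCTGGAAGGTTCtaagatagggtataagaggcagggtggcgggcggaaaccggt
CHORDC1: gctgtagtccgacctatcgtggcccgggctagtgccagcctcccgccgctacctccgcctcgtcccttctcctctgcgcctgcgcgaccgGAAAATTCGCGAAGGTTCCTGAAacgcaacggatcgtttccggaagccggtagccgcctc

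The amino acid response, in which the transcription factor ATF4 switches on amino acid transporters and aminoacyl-tRNA synthetases, was higher with MCL in 27 of 31 members and lower in 1, with a median of 0.40. ATF4 itself averaged 575 ± 12.6 CPM with MCL and 409 ± 12.9 CPM with ruxolitinib (log2 fold change 0.49, SE 0.03, adjusted p = 1.3e-19). CHAC1, which degrades glutathione, had 47.8, 50.6 and 50.2 CPM in the MCL libraries, against 15.7, 18.8 and 14.6 CPM in the ruxolitinib libraries, groups with no overlap (log2 fold change 1.60, SE 0.07, adjusted p = 4.41e-28). SLC7A5, a large neutral amino acid transporter, averaged 601 ± 9.59 CPM with MCL and 311 ± 7.87 CPM with ruxolitinib (log2 fold change 0.95, SE 0.03, adjusted p = 2e-34), with TNF-α alone between them at 424 ± 3.81 CPM. DDIT3, the stress factor CHOP, was at 0.93 (SE 0.12, adjusted p = 5.82e-09). The pseudokinase TRIB3 was at 0.80 (SE 0.06, adjusted p = 2.35e-16) and the arginine transporter SLC7A1 at 0.57 (SE 0.03, adjusted p = 3.92e-23). DDIT3 overlaps MARS on the opposite strand, which had 231 CPM with MCL, and without a known strand setting their reads cannot be told apart. XPOT, which exports tRNA from the nucleus, was at 0.52 (SE 0.04, adjusted p = 4.14e-18). GDF15, a stress cytokine often counted with ATF4 targets, went the other way with 1.24, 1.76 and 0.556 CPM with MCL and 3.22, 2.30 and 2.16 CPM with ruxolitinib (log2 fold change -1.11, SE 0.30, adjusted p = 0.00298). Without MCL replicate 3 its adjusted p was 0.0574.

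Genes of the endoplasmic reticulum stress response were higher with MCL in 14 of 20 members and lower in none, with a median of 0.23. HERPUD1, which serves degradation of misfolded proteins, averaged 73.3 ± 4.47 CPM with MCL and 37.7 ± 2.15 CPM with ruxolitinib (log2 fold change 0.96, SE 0.06, adjusted p = 5.58e-21). The transcription factor XBP1 averaged 234 ± 5.27 CPM with MCL and 146 ± 3.78 CPM with ruxolitinib (log2 fold change 0.68, SE 0.04, adjusted p = 1.58e-24). The chaperone HSPA5 averaged 724 ± 17.4 CPM with MCL and 456 ± 15.98 CPM with ruxolitinib (log2 fold change 0.67, SE 0.03, adjusted p = 7.31e-26). MANF, a secreted factor of that response, was at 0.63 (SE 0.06, adjusted p = 3.3e-14) and SDF2L1, a partner of its chaperones, at 0.50 (SE 0.06, adjusted p = 2.48e-10). TNF-α alone lay between the drugs for HERPUD1, XBP1 and HSPA5, at 46.4 ± 2.49 CPM for HERPUD1, 201 ± 4.62 CPM for XBP1 and 555 ± 10.5 CPM for HSPA5. Proteasome subunits were higher in 19 of 32 members and lower in none, but with a median of only 0.14, and in 20 the whole 95% interval lay inside 1.2-fold, a log2 change of 0.263. PSMD11, a regulatory particle subunit, had the smallest p among them at 0.30 (SE 0.04, adjusted p = 2.06e-08). When tested against a 1.2-fold change instead of no change, 0 of the 32 were called, against 19 in the test for any change.

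Of 23 tested NF-kB pathway regulators 16 were lower and 2 higher with MCL (median -0.33), and of 29 tested cytokine, chemokine and surface genes 16 were lower and 5 higher (median -0.48). VCAM1 (hg38 chr1:100719742-100739045, plus strand), an adhesion molecule for leukocytes, had 2.71, 2.15 and 1.67 CPM in the MCL libraries, against 18.8, 20.9 and 19.6 CPM in the ruxolitinib libraries. The groups were 9.01-fold apart (log2 fold change -3.17, SE 0.15, adjusted p = 4.93e-26). TNF-α alone gave 14.6 ± 1.03 CPM and untreated cells 0.0384 ± 0.0333 CPM. ICAM1, another adhesion molecule, had 170.1, 174 and 174 CPM with MCL and 384, 379.9 and 373 CPM with ruxolitinib (log2 fold change -1.13, SE 0.04, adjusted p = 8.92e-35). EBI3, a subunit of the cytokines IL-27 and IL-35, had 57.4, 64.9 and 55.2 CPM with MCL and 199.5, 205 and 188 CPM with ruxolitinib (log2 fold change -1.74, SE 0.05, adjusted p = 2e-38). TNFAIP2, a gene induced by TNF-α, averaged 804 ± 22.5 CPM with MCL and 1899 ± 49.6 CPM with ruxolitinib (log2 fold change -1.24, SE 0.03, adjusted p = 1.66e-41). Against TNF-α alone ICAM1 was at -1.11 (adjusted p = 3.22e-34) with MCL and 0.02 (adjusted p = 0.776) with ruxolitinib. TNFAIP2 was at -1.27 (adjusted p = 5.55e-42) with MCL and -0.04 (adjusted p = 0.507) with ruxolitinib. SELE, the gene of E-selectin, was at -2.89 (SE 0.34, adjusted p = 1.69e-10) at a low level of 0.584 ± 0.432 CPM with MCL and 4.34 ± 0.526 CPM with ruxolitinib, and was named after its values were seen. LTB, a membrane-bound TNF family cytokine, was at -0.65 (adjusted p = 1.98e-15) and the dendritic cell marker CD83 at -0.64 (adjusted p = 2.26e-20).

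Among the regulators, TRAF1, an adaptor of TNF receptors, differed most, with 49.1, 45.3 and 49.3 CPM in the MCL libraries, against 129.9, 142 and 127 CPM in the ruxolitinib libraries. It was 2.77-fold lower with MCL (log2 fold change -1.47, SE 0.05, adjusted p = 4.93e-32). The ruxolitinib libraries exceeded TNF-α alone at 102 ± 1.40 CPM. The subunit genes NFKB1 at -0.41 (SE 0.03, adjusted p = 6.21e-16) and NFKB2 at -0.45 (SE 0.03, adjusted p = 8.92e-18) moved by less. So did the inhibitor NFKBIA at -0.50 (SE 0.03, adjusted p = 1.87e-19) and the deubiquitinase TNFAIP3 at -0.36 (SE 0.04, adjusted p = 5.42e-12). BCL3, a nuclear IκB protein, averaged 47.03 ± 1.92 CPM with MCL and 77.6 ± 1.82 CPM with ruxolitinib (log2 fold change -0.72, SE 0.06, adjusted p = 9.96e-17). The adaptor TNIP1, a partner of TNFAIP3, was at -0.46 (SE 0.04, adjusted p = 4.21e-17). Means with MCL still lay far above untreated cells, at 354 ± 6.35 CPM with MCL and 52.3 ± 2.26 CPM untreated for NFKB2. TNFAIP3 averaged 155 ± 1.93 CPM with MCL and 9.50 ± 0.680 CPM untreated. The 2 higher regulators were the receptor TNFRSF1A at 0.25 (adjusted p = 5.44e-07) and the inhibitor NFKBIB at 0.17 (adjusted p = 0.0126). NFKBIB was not called without MCL replicate 2 (adjusted p = 0.114) or ruxolitinib replicate 3 (adjusted p = 0.11).

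CXCL8 and CXCL3, chemokines for neutrophils, ran against the list. CXCL8 had 135, 136 and 130.3 CPM in the MCL libraries, against 63.1, 67.1 and 61.2 CPM in the ruxolitinib libraries, and TNF-α alone gave 64.9 ± 3.38 CPM. All 3 MCL libraries were thus above both other groups, with a 2.10-fold difference between the drugs (log2 fold change 1.07, SE 0.05, adjusted p = 1.9e-22). CXCL3 had 128, 121 and 129 CPM with MCL and 55.4, 58.03 and 62.1 CPM with ruxolitinib (log2 fold change 1.11, SE 0.05, adjusted p = 4.56e-29). CD44, the hyaluronan receptor, averaged 1324 ± 14.6 CPM with MCL and 801 ± 4.95 CPM with ruxolitinib (log2 fold change 0.72, SE 0.03, adjusted p = 8.41e-30). For CD44 the difference lay on the side of ruxolitinib, at 0.04 (adjusted p = 0.411) with MCL and -0.69 (adjusted p = 2.34e-28) with ruxolitinib against TNF-α alone. The other higher members were CXCL2 at 0.61 (adjusted p = 2.62e-13) and LTA at 0.63 (adjusted p = 3.56e-05), both named after their values were seen. The inflammatory cytokines TNF and IL1B differed by less. TNF was at -0.23 (SE 0.07, adjusted p = 0.00739) and IL1B at -0.13 with a 95% interval of -0.26 to 0.01 (adjusted p = 0.16). IL1B was below TNF-α alone with either drug, at -1.03 (adjusted p = 5.06e-21) with MCL and -0.90 (adjusted p = 2.43e-18) with ruxolitinib.

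The kappa-B site, searched as GGG and TTCC with 3 free bases between, on both strands, occurred in 8 of 20 promoters of the regulators (40%), in 7 of 22 of the cytokine and surface genes (31.8%) and in 6.47% of all promoters. NFKBIA (chr14:35404750-35404899 on the minus strand), lower with MCL, and CXCL3 (chr4:74038690-74038839 on the minus strand), higher with MCL, are printed because each holds a match close to its start and they differed in opposite directions. The match of NFKBIA, in capitals, begins at -81 on the reverse strand, and CXCL3 has 2 overlapping matches, also in capitals, at -79 and -78, 1 on each strand.
NFKBIA: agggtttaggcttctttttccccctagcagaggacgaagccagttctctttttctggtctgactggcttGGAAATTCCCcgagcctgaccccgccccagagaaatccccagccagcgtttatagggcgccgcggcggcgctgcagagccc
CXCL3: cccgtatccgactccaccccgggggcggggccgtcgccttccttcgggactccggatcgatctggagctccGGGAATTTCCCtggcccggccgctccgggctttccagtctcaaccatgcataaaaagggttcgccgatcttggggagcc

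**Figure D4:**
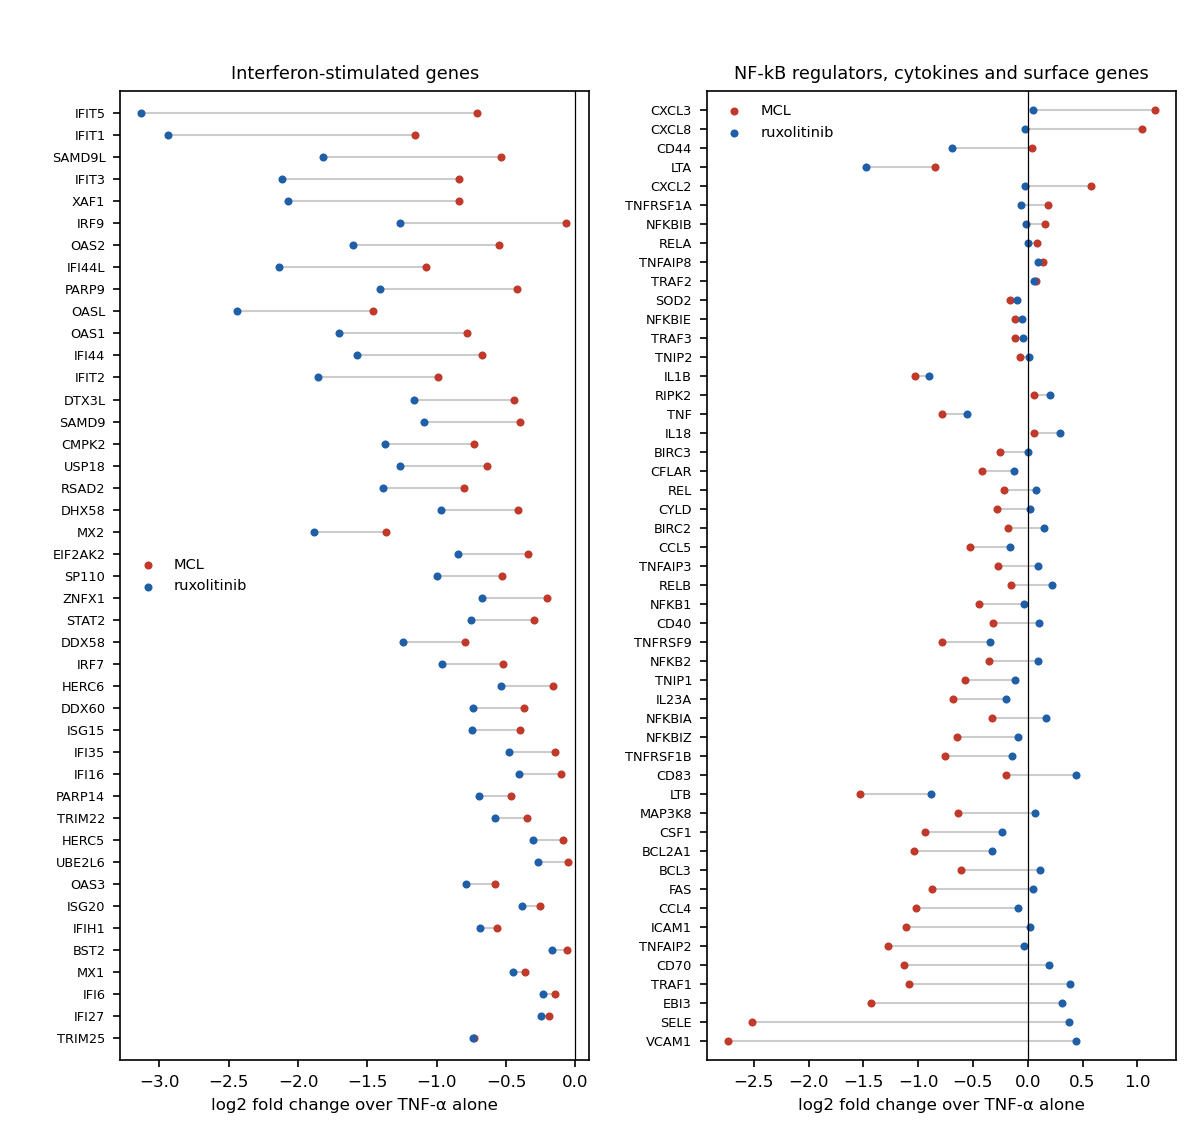
Log2 fold change over TNF-α alone (horizontal axis) with MCL (red) and with ruxolitinib (blue) for tested interferon-stimulated genes (left) and NF-kB genes (right) whose mean reached 1 CPM in the higher drug group; a grey line joins the values of a gene, and genes run from the highest to the lowest MCL over ruxolitinib. Both drugs share the same 3 TNF-α libraries. On the left the ruxolitinib points lie to the left of the MCL points except at TRIM25; on the right most MCL points lie to the left, with CXCL3, CXCL8 and CD44 at the top as exceptions.

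All 12 protein-coding genes with the lowest fold change, chosen as the 12 highest ones were, had a lower mean in untreated cells than under TNF-α alone, and in each MCL lay below TNF-α alone. CGN (hg38 chr1:151510510-151538692, plus strand), the gene of the tight junction protein cingulin, had 1.00, 0.783 and 0.371 CPM in the MCL libraries, against 6.98, 8.78 and 10.1 CPM in the ruxolitinib libraries. Its MCL libraries lay below and its ruxolitinib libraries above TNF-α alone at 3.89 ± 0.544 CPM (log2 fold change -3.56, SE 0.32, adjusted p = 7.07e-11 for MCL over ruxolitinib). Untreated cells averaged 0.0384 ± 0.0333 CPM. RNF223, a ring finger protein, had 0.944, 1.18 and 1.73 CPM with MCL and 7.53, 7.97 and 8.13 CPM with ruxolitinib (log2 fold change -2.61, SE 0.24, adjusted p = 5.03e-14). SPIB, an ETS transcription factor of B cells and plasmacytoid dendritic cells, had 1.12, 2.09 and 1.11 CPM with MCL and 6.37, 11.3 and 7.37 CPM with ruxolitinib (log2 fold change -2.54, SE 0.24, adjusted p = 5.63e-13). VASH2, a vasohibin, had 7.90, 6.66 and 6.36 CPM with MCL and 33.01, 34.1 and 35.3 CPM with ruxolitinib (log2 fold change -2.29, SE 0.10, adjusted p = 2.37e-27). Ruxolitinib exceeded TNF-α alone for these genes too, with log2 fold changes of 0.90 (adjusted p = 0.000699) for RNF223, 0.86 (adjusted p = 0.00147) for SPIB and 0.73 (adjusted p = 2.68e-09) for VASH2.

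IER3, an immediate-early gene with a role in survival, had 1.53, 1.76 and 1.42 CPM in the MCL libraries, against 7.10, 6.97 and 7.49 CPM in the ruxolitinib libraries, with TNF-α alone at 8.43 ± 2.39 CPM (log2 fold change -2.19, SE 0.21, adjusted p = 6.04e-13 for MCL over ruxolitinib). The adhesion molecule ALCAM was at -2.00 (SE 0.12, adjusted p = 6.84e-22), acetylcholinesterase ACHE at -1.98 (SE 0.09, adjusted p = 4.73e-27). The sodium-calcium exchanger SLC8A3 was at -2.26 (SE 0.23, adjusted p = 2.02e-12). RASSF4, a RAS association domain protein, was at -2.05 (SE 0.10, adjusted p = 4.6e-26), the anoctamin ANO9 at -2.16 (SE 0.16, adjusted p = 7.41e-10). TENT5B, a poly(A) polymerase family member, was at -1.93 (SE 0.22, adjusted p = 6.7e-11). In each of these 12 genes all MCL libraries were below all ruxolitinib libraries, which the rule that chose them required.

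Interferon-stimulated genes were higher with MCL than with ruxolitinib in 36 of 43 tested members and lower in none, with a median of 0.47. Both drugs lay below TNF-α alone, with medians of -0.46 for MCL and -0.97 for ruxolitinib. The ruxolitinib mean was below that of untreated cells in 37 of the 43 genes and the MCL mean in 12. IFIT5 (hg38 chr10:89414586-89421001, plus strand), an antiviral RNA-binding protein, had 18.5, 23.1 and 20.9 CPM in the MCL libraries, against 3.58, 3.42 and 4.62 CPM in the ruxolitinib libraries. MCL thus lay above ruxolitinib (log2 fold change 2.42, SE 0.12, adjusted p = 5.43e-25). TNF-α alone gave 34.04 ± 1.87 CPM, and untreated cells 11.1 ± 0.305 CPM.

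IFIT1 had 40.5, 43.6 and 43.9 CPM with MCL and 13.5, 13.1 and 10.8 CPM with ruxolitinib (log2 fold change 1.78, SE 0.08, adjusted p = 1.1e-28). Its level was 95.2 ± 2.84 CPM with TNF-α alone and 33.7 ± 0.727 CPM in untreated cells. IFIT3 averaged 36.3 ± 3.09 CPM with MCL and 14.96 ± 1.37 CPM with ruxolitinib (log2 fold change 1.27, SE 0.08, adjusted p = 1.2e-21). Both genes overlap LIPA on the opposite strand. OAS2, a sensor of double-stranded RNA, had 114, 114 and 106 CPM with MCL and 54.98, 53.5 and 52.4 CPM with ruxolitinib (log2 fold change 1.05, SE 0.05, adjusted p = 4.38e-28). It averaged 163 ± 2.08 CPM with TNF-α alone and 111 ± 3.46 CPM in untreated cells. OAS1 was at 0.93 (SE 0.08, adjusted p = 2.56e-14) and the ADP-ribosyltransferase PARP9 at 0.99 (SE 0.06, adjusted p = 7.92e-23). Its partner DTX3L was at 0.72 (SE 0.04, adjusted p = 6.9e-22), and the PARP9 and DTX3L genes overlap on opposite strands. STAT2, which carries the interferon signal, averaged 70.4 ± 4.31 CPM with MCL and 51.3 ± 2.07 CPM with ruxolitinib (log2 fold change 0.46, SE 0.05, adjusted p = 3.38e-10). MX1, a low-level gene here at 4.08 ± 0.148 CPM with MCL and 3.84 ± 0.719 CPM with ruxolitinib, was at 0.09 with a 95% interval of -0.28 to 0.45 (adjusted p = 0.783). A difference was not detectable at this depth.

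The interferon-stimulated response element, searched as GAAA and GAAA with 2 free bases between, on both strands, occurred in 19 of 34 promoters of the list (55.9%) and in 3.65% of all promoters. IFIT1 (chr10:89392473-89392622 on the plus strand) and IFIT3 (chr10:89327847-89327996 on the plus strand) are printed as members that differed by over 2-fold. The matches, in capitals, begin at -116 and -103 in IFIT1 and at -122 in IFIT3, all read on the reverse strand. IFIT3 has a further match at -156, outside the printed stretch.
IFIT1: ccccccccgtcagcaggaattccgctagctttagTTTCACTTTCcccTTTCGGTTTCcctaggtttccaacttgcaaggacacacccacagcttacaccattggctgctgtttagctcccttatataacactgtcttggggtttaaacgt
IFIT3: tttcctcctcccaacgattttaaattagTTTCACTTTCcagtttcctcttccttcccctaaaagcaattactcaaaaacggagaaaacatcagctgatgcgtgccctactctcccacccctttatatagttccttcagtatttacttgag

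The letters stood in 8 of 93 promoters (8.6%) of genes at least 2-fold higher with MCL and in 3 of 165 (1.82%) of those at least 2-fold lower.

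Interferon-gamma and antigen-presentation genes split, with 7 of 24 members higher and 8 lower (median 0.00). The transcription factor IRF1 was at 0.40 (SE 0.09, adjusted p = 0.000478) and the chemokine CXCL10 at 0.20 (SE 0.04, adjusted p = 5.92e-05). CIITA, the master regulator of class II antigen presentation, went the other way, with 70.96, 71.6 and 76.7 CPM in the MCL libraries, against 188, 186 and 191 CPM in the ruxolitinib libraries. This was the most different gene of the list (log2 fold change -1.37, SE 0.04, adjusted p = 4.95e-36). Its ruxolitinib libraries were above TNF-α alone at 159 ± 1.22 CPM. The guanylate-binding proteins GBP4 at -0.99 (SE 0.13, adjusted p = 3e-09), GBP5 at -0.91 (SE 0.10, adjusted p = 8.65e-12) were lower with MCL too, as was GBP2 at -0.83 (SE 0.12, adjusted p = 8.15e-08). For GBP5 both drugs were below TNF-α alone, at -1.50 (adjusted p = 5.26e-21) with MCL and -0.59 (adjusted p = 1.95e-07) with ruxolitinib. The peptide-loading protein TAPBP differed by less, at -0.27 (adjusted p = 7.51e-09).

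Transcripts of the JAK-STAT pathway itself were lower with MCL in 14 of 30 members and higher in 5, with a median of -0.21. Without MCL replicate 2 the count of higher members was 2. STAT5A had 335, 344 and 359 CPM in the MCL libraries, against 525, 531 and 494 CPM in the ruxolitinib libraries, with no overlap (log2 fold change -0.58, SE 0.04, adjusted p = 8.18e-17). The gene lies at hg38 chr17:42287547-42311943, plus strand. STAT5B was also lower, at -0.42 (SE 0.04, adjusted p = 5.14e-12). STAT3 was at 0.04 with a 95% interval of -0.03 to 0.11 (adjusted p = 0.416), with the interval inside 1.2-fold. STAT5A was -0.60 (adjusted p = 3.13e-17) from TNF-α alone with MCL and -0.02 (adjusted p = 0.833) with ruxolitinib. STAT3 was -0.05 (adjusted p = 0.369) from it with MCL and -0.09 (adjusted p = 0.0785) with ruxolitinib.

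Among the kinases, TYK2 averaged 216 ± 7.29 CPM with MCL and 325 ± 21.3 CPM with ruxolitinib (log2 fold change -0.59, SE 0.04, adjusted p = 1.17e-19). JAK1 averaged 297 ± 9.05 CPM with MCL and 355 ± 6.96 CPM with ruxolitinib (log2 fold change -0.26, SE 0.03, adjusted p = 5.43e-09). JAK2, the kinase that is mutated in the line, averaged 35.6 ± 2.84 CPM with MCL and 47.00 ± 1.89 CPM with ruxolitinib (log2 fold change -0.40, SE 0.06, adjusted p = 7.1e-07). Of the receptors, CSF2RB, the shared beta chain for GM-CSF and IL-3, was at -0.54 (SE 0.04, adjusted p = 1.97e-18) and the interferon-gamma receptor chain IFNGR2 at -0.65 (SE 0.07, adjusted p = 1.05e-11). IFNGR1, the other chain, was higher at 0.26 (SE 0.06, adjusted p = 0.000569). So were the GM-CSF receptor alpha chain CSF2RA at 0.62 (SE 0.17, adjusted p = 0.00344) and the adaptor SH2B3, an inhibitor of JAK2 signalling, at 0.27 (SE 0.04, adjusted p = 1.5e-08). Without MCL replicate 2 CSF2RA was at 0.43 (adjusted p = 0.0901) and not called. SH2B3 was below TNF-α alone with either drug, at -0.49 (adjusted p = 1.31e-17) with MCL and -0.76 (adjusted p = 5.91e-26) with ruxolitinib.

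**Figure D5:**
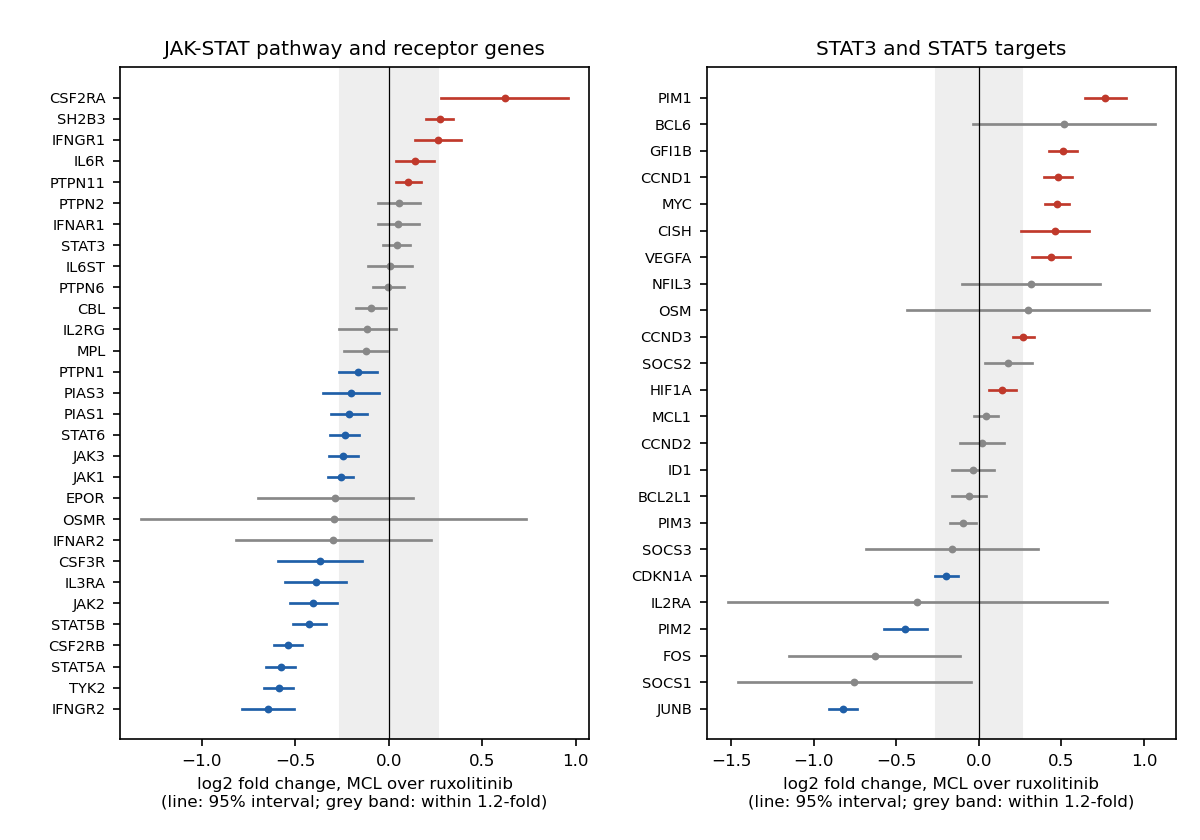
Log2 fold change of MCL over ruxolitinib (horizontal axis, points) with its 95% interval (lines) for the tested members of the JAK-STAT pathway list (left) and the STAT3 and STAT5 target list (right); red is higher, blue lower and grey not called, and the grey band spans 1.2-fold in either direction. STAT3 sits in the band, STAT5A and TYK2 to its left and PIM1 to its right.

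Of 24 targets of STAT3 and STAT5, 8 were higher (33.3%), 3 lower (12.5%) and 13 not called, with a median of 0.09. The lower share was near the 13.1% of all tested genes. Against TNF-α alone the median was -0.27 with MCL and -0.34 with ruxolitinib. PIM1, a kinase of survival, had 54.6, 55.8 and 54.7 CPM with MCL and 30.7, 34.9 and 31.5 CPM with ruxolitinib (log2 fold change 0.77, SE 0.06, adjusted p = 2.14e-16). MCL lay above TNF-α alone, 42.3 ± 1.55 CPM, and ruxolitinib below. MYC averaged 314 ± 13.7 CPM with MCL and 226 ± 5.65 CPM with ruxolitinib (log2 fold change 0.47, SE 0.04, adjusted p = 3.91e-17), with 327 ± 3.48 CPM under TNF-α alone. Cyclin D1, CCND1, averaged 106 ± 2.05 CPM with MCL and 75.8 ± 0.293 CPM with ruxolitinib (log2 fold change 0.48, SE 0.04, adjusted p = 2.52e-14). Both drugs lay below TNF-α alone at 175 ± 2.93 CPM. CISH, a feedback inhibitor of STAT5 that overlaps the far more abundant MAPKAPK3 on the opposite strand, was at 0.46 (SE 0.10, adjusted p = 0.000272). The erythroid and megakaryocytic factor GFI1B was at 0.51 (SE 0.04, adjusted p = 1.34e-15). VEGFA, an angiogenic factor, was at 0.43 (SE 0.06, adjusted p = 6.15e-09) and cyclin D3, CCND3, at 0.27 (SE 0.03, adjusted p = 2.98e-10).

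BCL2L1, the survival gene of BCL-XL, had 59.6, 64.2 and 62.9 CPM in the MCL libraries, against 65.97, 66.99 and 61.8 CPM in the ruxolitinib libraries. The groups overlapped, at -0.06 with a 95% interval of -0.16 to 0.04 (adjusted p = 0.428). Both were below TNF-α alone, 98.9 ± 4.43 CPM, with log2 fold changes of -0.67 (adjusted p = 1.06e-17) for MCL and -0.61 (adjusted p = 9.09e-16) for ruxolitinib. MCL1, another survival gene of that family, was at 0.04 with a 95% interval of -0.03 to 0.11 (adjusted p = 0.457). Unlike CISH, the feedback inhibitors SOCS1, SOCS2 and SOCS3 were not called. SOCS2 was at 0.18 with a 95% interval of 0.04 to 0.32 (adjusted p = 0.0514). SOCS3 was at -0.16 with a 95% interval of -0.69 to 0.36 (adjusted p = 0.708) and SOCS1 at -0.76 with a 95% interval of -1.46 to -0.05 (adjusted p = 0.108). SOCS1 and SOCS3 lay at or below 2.57 CPM in every library of either drug, and their intervals reach beyond 1.2-fold, so an equal level was not shown. Of the 3 lower members, the AP-1 gene JUNB was at -0.83 (SE 0.04, adjusted p = 1.13e-24) and the kinase PIM2 at -0.45 (SE 0.07, adjusted p = 9.45e-08). The third was the cell cycle inhibitor CDKN1A at -0.20 (SE 0.03, adjusted p = 4.99e-06).

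Several feedback genes of the ERK kinase were higher with MCL, and ruxolitinib lay below TNF-α alone for those named as higher. Over the list of feedback and immediate-early genes 10 of 27 were higher and 7 lower, with a median of 0.16. DUSP4, a phosphatase of MAP kinases, had 157, 153 and 166 CPM in the MCL libraries, against 52.01, 51.2 and 51.7 CPM in the ruxolitinib libraries, a 3.07-fold difference without overlap (log2 fold change 1.62, SE 0.05, adjusted p = 3.14e-37). DUSP5 was at 1.04 (SE 0.05, adjusted p = 2.78e-28) and DUSP6 at 0.88 (SE 0.06, adjusted p = 3.53e-20). The ETS factor ETV5 was at 1.42 (SE 0.08, adjusted p = 4.65e-22) and the AP-1 gene FOSL1 at 1.82 (SE 0.13, adjusted p = 4.24e-18). Against TNF-α alone ETV5 was at 0.02 (adjusted p = 0.887) with MCL and -1.40 (adjusted p = 2.47e-21) with ruxolitinib. DUSP6 was at -0.24 (adjusted p = 0.000285) with MCL and -1.11 (adjusted p = 5.27e-25) with ruxolitinib. The ERK inhibitor SPRED1 was at 0.74 (SE 0.08, adjusted p = 2.35e-12). Besides IER3, the phosphatases DUSP10 at -0.43 (SE 0.06, adjusted p = 1.12e-08) and DUSP2 at -0.39 (SE 0.08, adjusted p = 0.000142) were lower with MCL.

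Ribosome biogenesis genes, many of them targets of MYC, were higher with MCL in 31 of 40 members and lower in none, with a median of 0.22. Ruxolitinib lay below TNF-α alone in 39 of the 40 by mean, with a median of -0.28, and MCL had a median of -0.06. POLR3G, a subunit of RNA polymerase III, had 20.9, 17.4 and 18.5 CPM with MCL and 8.56, 9.53 and 10.4 CPM with ruxolitinib (log2 fold change 1.00, SE 0.11, adjusted p = 3.91e-11). POLR3G overlaps the more abundant MBLAC2 on the opposite strand. The nucleolar helicase DDX21 averaged 478 ± 6.09 CPM with MCL and 374 ± 7.77 CPM with ruxolitinib (log2 fold change 0.35, SE 0.03, adjusted p = 5.14e-14). The RNA polymerase I subunit POLR1B averaged 77.1 ± 1.01 CPM with MCL and 57.6 ± 0.126 CPM with ruxolitinib (log2 fold change 0.42, SE 0.05, adjusted p = 1.09e-10). These were mostly small differences: in 16 of the 40 the interval lay inside 1.2-fold, and 8 were called against a 1.2-fold change.

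Of 21 tested haematopoietic lineage genes, which hold transcription factors, platelet genes and others, 11 were lower with MCL and 1 higher, with a median of -0.19. NFE2, a factor of megakaryocytes and erythroid cells, had 20.1, 18.5 and 20.1 CPM in the MCL libraries, against 51.2, 51.6 and 51.7 CPM in the ruxolitinib libraries, groups 2.63-fold apart without overlap (log2 fold change -1.39, SE 0.07, adjusted p = 1.48e-25). TNF-α alone lay between them at 35.4 ± 1.00 CPM, and untreated cells were highest at 66.3 ± 4.08 CPM. SPI1, the myeloid factor PU.1, averaged 138 ± 6.62 CPM with MCL and 232 ± 6.46 CPM with ruxolitinib (log2 fold change -0.74, SE 0.04, adjusted p = 2.49e-24). MYB averaged 101 ± 5.61 CPM with MCL and 166 ± 5.58 CPM with ruxolitinib (log2 fold change -0.71, SE 0.04, adjusted p = 6.1e-21), with TNF-α alone between the drugs at 129.9 ± 1.198 CPM. IKZF1, which encodes Ikaros, was at -0.61 (SE 0.04, adjusted p = 2.63e-19) and the progenitor factor GATA2 at -0.58 (SE 0.03, adjusted p = 4.8e-22). The LIM domain factor LMO2 was higher at 0.58 (SE 0.09, adjusted p = 2.28e-07). The transferrin receptor TFRC was at -0.32 (SE 0.03, adjusted p = 1.16e-12).

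Within the BCL2 family, 3 of 12 members were higher and 5 lower with MCL, and all 5 lower ones were death-promoting BH3-only genes. So were PMAIP1 and BID among the higher ones, so this class split. BMF had 33.3, 36.9 and 37.6 CPM in the MCL libraries, against 76.7, 83.1 and 76.8 CPM in the ruxolitinib libraries, without overlap (log2 fold change -1.13, SE 0.06, adjusted p = 1.91e-23). TNF-α alone gave 43.1 ± 1.94 CPM. BBC3, the gene of PUMA, was at -0.50 (SE 0.07, adjusted p = 5.38e-08), and BCL2L11, the gene of BIM, at -0.46 (SE 0.08, adjusted p = 4.16e-06). BIK was at -1.23 (SE 0.35, adjusted p = 0.00509) and BAD at -0.40 (SE 0.12, adjusted p = 0.0121). BAD was not called without MCL replicate 1 (adjusted p = 0.075) or without ruxolitinib replicate 1 (adjusted p = 0.137). Against TNF-α alone BBC3 was at -0.01 (adjusted p = 0.955) with MCL and 0.49 (adjusted p = 1.69e-07) with ruxolitinib. BCL2L11 was at -0.05 (adjusted p = 0.702) with MCL and 0.41 (adjusted p = 7.45e-05) with ruxolitinib. PMAIP1, the gene of NOXA and also a BH3-only gene, had 104, 95.4 and 97.2 CPM with MCL and 50.7, 49.2 and 47.5 CPM with ruxolitinib (log2 fold change 1.01, SE 0.05, adjusted p = 3.74e-26). The survival gene BCL2 was higher with MCL at 0.58 (SE 0.08, adjusted p = 6.33e-09), as was the BH3-only gene BID at 0.19 (SE 0.06, adjusted p = 0.00859). BID was not called without MCL replicate 1 (adjusted p = 0.0734) or ruxolitinib replicate 1 (adjusted p = 0.0503). BCL2L11 overlaps MIR4435-2HG on the opposite strand, and BAD overlaps the more abundant GPR137, also on the opposite strand.

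Targets of p53 were lower with MCL in 7 of 15 members and higher in 1, the nuclease gene AEN at 0.24 (adjusted p = 4.57e-05), with a median of -0.21. ZMAT3, an RNA-binding protein, differed most with 17.9, 19.98 and 21.2 CPM with MCL and 33.9, 36.4 and 40.1 CPM with ruxolitinib (log2 fold change -0.90, SE 0.08, adjusted p = 3.23e-15). BTG2, an antiproliferative gene, was at -0.49 (SE 0.06, adjusted p = 1.22e-09) and the death receptor TNFRSF10B at -0.31 (SE 0.05, adjusted p = 1.97e-07). FDXR, a mitochondrial reductase, was at -0.33 (SE 0.07, adjusted p = 0.000126) and SESN1, a sestrin, at -0.27 (SE 0.05, adjusted p = 1.69e-05). MDM2, the main negative regulator of p53, was named after its values were seen and was at -0.02 with a 95% interval of -0.11 to 0.08 (adjusted p = 0.831).

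Several programmes differed by small amounts between the drugs. Over all tested genes the whole 95% interval lay inside 1.2-fold for 4967, 30.8%. This held for 22 of 27 genes of DNA replication and the G1/S step, where 1 was higher and 9 lower with a median of -0.05. PCNA, the sliding clamp of DNA polymerase, averaged 385 ± 18.1 CPM with MCL and 461 ± 2.43 CPM with ruxolitinib (log2 fold change -0.26, SE 0.03, adjusted p = 5.89e-09). The cell cycle inhibitor CDKN2D was the most different member at -0.71 (SE 0.07, adjusted p = 6.5e-12). The helicase subunits MCM3 at -0.11 (adjusted p = 0.0112), MCM5 at 0.09 (adjusted p = 0.0382) and MCM7 at -0.13 (adjusted p = 0.00325) were called at differences of that size. MCM5, the 1 higher member, was not called with only the 6 libraries (adjusted p = 0.0832) or without MCL replicate 2, MCL replicate 3, ruxolitinib replicate 1 or ruxolitinib replicate 3 (adjusted p from 0.079 to 0.223). MCM3 was not called without MCL replicate 1 (adjusted p = 0.132) or ruxolitinib replicate 2 (adjusted p = 0.0936), and MCM7 not without ruxolitinib replicate 1 (adjusted p = 0.0822). The count of lower genes was 5 without ruxolitinib replicate 1. Sterol and lipid genes lay inside 1.2-fold in 15 of 21 members (7 higher, 3 lower), with the lipogenic enzyme FASN at 0.26 (SE 0.03, adjusted p = 6.37e-09). ABCG1, a cholesterol exporter, stood apart with 1.00, 0.849 and 0.803 CPM with MCL and 3.03, 3.74 and 3.98 CPM with ruxolitinib (log2 fold change -2.01, SE 0.29, adjusted p = 5.6e-08). Glycolysis and hypoxia genes lay inside it in 12 of 20 members (7 higher, 0 lower), with hexokinase HK2 at 0.57 (SE 0.04, adjusted p = 4.39e-18) and the glucose transporter SLC2A1 at 0.60 (SE 0.05, adjusted p = 6.97e-15) among the higher ones. EGLN3, an oxygen-sensing hydroxylase, was the most different of them at 1.00 (SE 0.24, adjusted p = 0.00092). It averaged only 3.90 CPM with MCL and overlaps SPTSSA, at up to 49.8 CPM by group mean, on the same strand.

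Protein-coding transcripts of the mitochondrial chromosome were lower with MCL in 10 of 13 members and higher in none, with a median of -0.31. MT-ND2, a subunit of respiratory complex I, had 1484, 1714 and 1602 CPM in the MCL libraries, against 2226, 2308 and 2163 CPM in the ruxolitinib libraries (log2 fold change -0.48, SE 0.05, adjusted p = 1.1e-07). MT-CO1, a subunit of cytochrome oxidase, averaged 10435 ± 581 CPM with MCL and 12968 ± 316 CPM with ruxolitinib (log2 fold change -0.31, SE 0.03, adjusted p = 9.46e-14). All mitochondrial transcripts together made up 4.35%, 4.78% and 4.52% of counts with MCL and 5.51%, 5.53% and 5.44% with ruxolitinib, so the groups did not overlap. These transcripts were 5.20%, 5.21% and 4.94% of counts with TNF-α alone, between the drugs. Their share is also a measure of RNA quality, and its part in the other results was not tested.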

How the data were processed

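RNA-seq of UKE-1 cells was read from a table of raw counts per gene that the authors deposited, with 1 column for each of 15 libraries in 5 groups of 3. HISAT2 2.0.5, featureCounts 1.5.0-p3 and DESeq2 1.16.1 are named per the submitters' processing notes, as are the builds hg38 and mm10; the use of strand in counting is not given in the sources used here. In the table, MCL and Control were taken as micheliolide and untreated cells.

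Library totals ran from 15476399 to 18035604 counts, and intervals of fold changes come from the spread between libraries. With edgeR 4.0.16 in R 4.3.3, genes with low counts were filtered by group (minimum count 10), which left 16146 of 58735, libraries were scaled by TMM, and 1 robust quasi-likelihood model over all 15 libraries, with 10 residual degrees of freedom, gave MCL minus ruxolitinib. P-values and intervals used a spread partly shared across genes, which gave a median of 58.94 total degrees of freedom. P-values were adjusted by the Benjamini-Hochberg method over all 16146 genes, two-sided, and called under 0.05. CPM values are TMM-scaled. The script was tested on simulated data. Promoters and motifs came from RefSeq (GRCh38.p14), and tables and figures from Python 3.11.15.

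The members and the 22 gene lists were chosen with earlier results of these data known. Named genes were the 12 highest and 12 lowest protein-coding fold changes and the 3 highest and 3 lowest of other biotypes, among called genes that averaged 5 CPM or more with either drug and whose libraries did not overlap. To these came up to 6 called members of each list in its leading direction and up to 3 in the other, by p, and a fixed panel. Of 196 named genes 67 overlap another tested gene, whose reads cannot be told apart without strand. Alternatives were DESeq2 1.42.0 size factors, library totals, no filter, DESeq2, only the 6 libraries, a replicate block, a test against 1.2-fold and leaving out each library. Some named genes are not reported here.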

Additional observations from a re-analysis of the deposited data

How the results depend on the processing

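No result reversed under any alternative run. Scaling by DESeq2 size factors gave 4431 calls, by library totals 4460, no filter 4129, DESeq2 4006 and only the 6 libraries 4154, against 4434, and 3987 of the DESeq2 calls were shared. A test against a 1.2-fold change, which asks for a larger difference, called 493 genes higher with MCL and 648 genes lower with MCL. Among genes higher with MCL it left 5 of the STAT3 and STAT5 targets, 6 of ERK feedback, 8 of ribosome biogenesis, 0 metallothionein, 11 heat shock, 7 endoplasmic reticulum stress, 0 proteasome, 0 sterol, 3 glycolysis and 1 Kruppel-like gene. Among lower genes it left 4 interferon-gamma and antigen-presentation genes, 5 of JAK-STAT, 2 of p53, 1 of DNA replication, 5 haematopoietic and 2 mitochondrial. Leaving out 1 library gave 1955 to 2226 higher and 1769 to 1928 lower genes. Lower DNA replication genes ranged from 5 (without ruxolitinib replicate 1) to 12, against 9. Higher Kruppel-like genes ranged from 2 (without MCL replicate 1, MCL replicate 2 or ruxolitinib replicate 1) to 4, against 4. Higher JAK-STAT genes numbered 2 without MCL replicate 2, against 5; the cause was not tested.

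Libraries that share a replicate number deviated together at correlations of 0.003, 0.048 and 0.046, and those with different numbers at -0.068 to 0.027. MCL replicates 2 and 3 correlated best with the ruxolitinib library of their own number, MCL replicate 1 with ruxolitinib replicate 3, at 0.027. All these values were small, and the numbers were not taken as pairs. With the replicate number as a block, fitted over 12 libraries and chosen after seeing the data because the untreated columns carry no number, there were 2367 genes higher with MCL and 2028 genes lower with MCL, and 4308 of 4395 calls were shared; the planned block over all 15 libraries was not run. Of 196 named genes 63 lost their call against a 1.2-fold change. AKR1B1, HSPB1 and MCM5, at differences near 0.1 in size, lost theirs in several settings, CSF2RA, BAD, BID, NFKBIB, MCM3, MCM7 and others on leaving out 1 library, and SOCS2 gained one with library totals (adjusted p = 0.0393) and with the block (adjusted p = 0.045). Depth limits genes of few counts, such as SOCS1, MX1 and CCR7.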

Other observations

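Of 1109 antisense genes 9.29% were called and of 735 long intergenic RNAs 13.3%, beside 32.7% of 12455 protein-coding genes; the difference between these shares was not tested. NMRAL2P, a transcribed pseudogene, had 13.9, 14.2 and 15.1 CPM with MCL and 1.03, 0.187 and 0.234 CPM with ruxolitinib (log2 fold change 4.87, SE 0.25, adjusted p = 2.43e-18). AL445490.1, antisense to the interferon-stimulated gene IFI6, had 6.31, 6.99 and 7.91 CPM with MCL and 1.09, 1.245 and 1.05 CPM with ruxolitinib (log2 fold change 2.64, SE 0.22, adjusted p = 1.21e-15). IFI6 itself, named after its values were seen, was at 0.09 with a 95% interval of -0.00 to 0.17 (adjusted p = 0.143). IGKC, the constant segment of the kappa light chain, had 1.24, 1.11 and 0.865 CPM with MCL and 6.55, 6.85 and 6.67 CPM with ruxolitinib (log2 fold change -2.63, SE 0.26, adjusted p = 5.37e-13). TNF-α alone gave 2.97 ± 0.755 CPM. AL109918.1 was at -1.84 (SE 0.07, adjusted p = 1.94e-31) and AC100803.3 at -1.44 (SE 0.20, adjusted p = 3.28e-08).

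Kruppel-like transcription factors split, with 4 of 10 tested members higher and 3 lower. KLF9 averaged 20.3 ± 1.15 CPM with MCL and 10.2 ± 0.579 CPM with ruxolitinib (log2 fold change 0.99, SE 0.10, adjusted p = 1.62e-12). KLF10 averaged 37.3 ± 2.68 CPM with MCL and 50.5 ± 1.76 CPM with ruxolitinib (log2 fold change -0.44, SE 0.07, adjusted p = 2.36e-07). The low-level genes KLF4 at 0.86 (SE 0.30, adjusted p = 0.024) and KLF5 at 1.09 (SE 0.37, adjusted p = 0.0193) were called higher as well, and KLF16 at 0.18 (adjusted p = 0.00601). KLF4 was not called without MCL replicate 1, MCL replicate 2 or ruxolitinib replicate 1 (adjusted p from 0.0614 to 0.107). KLF5 was not called without MCL replicate 2, MCL replicate 3 or ruxolitinib replicate 1 (adjusted p from 0.0564 to 0.132), and KLF16 not without MCL replicate 1 (adjusted p = 0.0594). Of the metallothionein list 5 of 10 members passed the count filter, and the 2 called were the zinc sensor MTF1 at 0.36 (SE 0.08, adjusted p = 0.000338) and the zinc exporter SLC30A1 at 0.25 (SE 0.07, adjusted p = 0.00443).

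Of the 42 list members outside the count filter, 27 had at most 5 counts in every one of the 15 libraries. Among them were textbook members of the lists above, named after their values were seen: ASNS, asparagine synthetase and a target of ATF4, had 0 to 3 counts per library, and PSAT1, of serine synthesis, 0 to 1. The antioxidant gene CBR1 had 0 to 1 counts, the cytokine gene IL6 had 0 in all 15 libraries, and CXCL1, a close relative of CXCL3, 0 to 1.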
